A study of Mus musculus with 20 samples.

Results

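The region around Cxcr4 on mouse chromosome 1 held 5 of the 11222 deposited enhancers, taken as every enhancer whose midpoint lay in a window of 500 kb placed around the gene (mm39 build). Macrophages were grown with M-CSF (macrophage colony-stimulating factor) from the marrow of C57BL/6 mice, and all groups share this origin. They were left unstimulated (0 h) or were given interferon gamma (IFN-γ), CpG DNA or both for 3, 9 or 15 h, which makes 10 groups of 2 biological replicates. The region was chosen by its loss of transcription against unstimulated cells in these same libraries. The levels against unstimulated cells are therefore a description with no test, and tests were read only from comparisons that use no unstimulated library. The stimulated libraries of those comparisons also entered that loss, so these tests are not wholly independent of the choice of region. Cells kept without a stimulus for 3, 9 or 15 h are not among the groups, so time in culture and stimulus cannot be told apart in any comparison with 0 h.

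Cxcr4 encodes the receptor for the chemokine CXCL12, which holds leukocytes and their precursors in the bone marrow and guides their migration. IFN-γ is a cytokine of T cells and natural killer cells that activates macrophages through its own cell-surface receptor. CpG DNA imitates bacterial DNA and is sensed in endosomes by TLR9, which signals through MyD88 to NF-κB. Active enhancers are transcribed in both directions into short capped RNAs, and cap analysis of gene expression (CAGE) counts the 5′ ends of capped RNA as tags.

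The CpG oligodeoxynucleotide named in the treatment text is printed because it is the stimulus that is set against IFN-γ throughout, with its CG dinucleotides, the motif TLR9 recognises, in capitals. The text gives it in a stimulation of another length than the times of these samples, so whether the same oligodeoxynucleotide was used here is not stated.
CpG ODN-1826, 5′ to 3′: tccatgaCGttcctgaCGtt

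The 5 enhancers are called E1 to E5 in order of position (mm39). E1 is chr1:128326811-128327315 (504 bp). E2 is chr1:128518463-128519014 (551 bp), with its midpoint 191.7 kb above that of E1. E3 is chr1:128635373-128635777 (404 bp), E4 is chr1:128649703-128650309 (606 bp) and E5 is chr1:128675212-128675424 (212 bp), 116.8, 131.3 and 156.6 kb above E2. The median width over all deposited enhancers was 288 bp, so that E1 to E4 were wider than the median and E5 was narrower. In the RefSeq gene order of an older build (GRCm38.p6, names only), Cxcr4 lies between Dars and Thsd7b. An mm39 annotation was not used here, so exon, intron or promoter overlap of E1 to E5 was not checked, and tags of an enhancer and of the gene's own start site cannot be told apart where they overlap.

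The nearest enhancer outside the lower edge, chr1:128286156-128286389, lay 13.7 kb beyond it and held 19 tags over the 20 libraries, 7 of them in unstimulated cells. The nearest above the upper edge, chr1:130946122-130946288, lay 2150 kb away and held 9 tags, with 0 in unstimulated cells. E1 and E5, the outermost enhancers inside, lay 27.1 and 125 kb from the edges of the window and held 44 and 32 tags.

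E2 carried most of the signal of the region. It held 232 of the 343 tags (67.6%) and had a tag in all 20 libraries, whereas E1, E3, E4 and E5 held 44, 19, 16 and 32 tags and were without a tag in 8 to 10 of the 18 stimulated libraries. The depth of a library was 12776280 to 13855472 tags, and 0.0991% to 0.22% of them fell on enhancers. Every level below is in RPM, the tags of an enhancer per 1000000 tags of its library. The filter on low counts kept 2792 enhancers, among them E1, E2 and E5. E1 passed it only through the 2 unstimulated libraries and E5 only through the 2 libraries with CpG at 15 h, so counts over these 3 are not counts over the region. E3 and E4 are given by their tags.

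In unstimulated cells E2 gave 48 and 58 tags, a level of 3.89 ± 0.598 RPM (SD, n = 2), which was the 6th highest of the 11222 enhancers. With IFN-γ it gave 12 and 10 tags at 3 h (0.838 ± 0.0973 RPM), 9 and 10 at 9 h (0.688 ± 0.0544 RPM) and 11 and 8 at 15 h (0.715 ± 0.165 RPM). With CpG it gave 10 and 8 tags at 3 h (0.679 ± 0.0962 RPM), 2 and 9 at 9 h (0.409 ± 0.367 RPM) and 16 and 4 at 15 h (0.771 ± 0.648 RPM). The 2 CpG libraries lay far apart at 9 and at 15 h, while the IFN-γ libraries lay close together at each time. With both stimuli E2 gave 4 and 7 tags at 3 h (0.403 ± 0.162 RPM), 1 and 1 at 9 h (0.0759 ± 0.000284 RPM) and 1 and 3 at 15 h (0.154 ± 0.113 RPM). The SD at 9 h is that of equal counts of 1 tag and understates the counting error. All 18 stimulated libraries lay below both unstimulated ones. In these bulk libraries, fewer cells transcribing the region and less RNA per cell cannot be told apart.

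**Figure D1:**
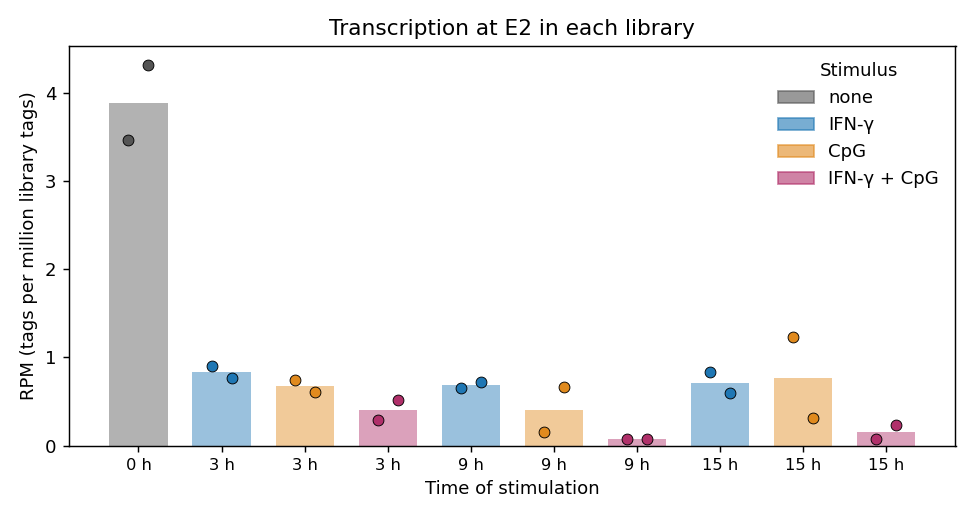
Level of E2 in RPM (vertical axis) in each of the 20 libraries (points) and the mean of each group of 2 (bars), by time of stimulation and coloured by stimulus. Unstimulated libraries sit at 3.47 and 4.32 RPM and the highest stimulated library at 1.23 RPM, and the bars of both stimuli are the lowest at each time.

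As shares of the unstimulated level, 21.5%, 17.7% and 18.4% of E2 was left with IFN-γ at 3, 9 and 15 h, and 17.4%, 10.5% and 19.8% with CpG. With both stimuli 10.4%, 1.95% and 3.95% was left. The ratio of unstimulated to stimulated RPM was 4.64 (exact 95% interval 2.91 to 7.71, counting error only) with IFN-γ at 3 h and 5.72 (3.45 to 10.0) with CpG at 3 h. With both stimuli it was 9.68 at 3 h (interval 5.2 to 20.0), 51.2 at 9 h (13.8 to 429) and 25.6 at 15 h (9.73 to 95.9). The upper end at 9 h is wide because it rests on 2 tags.

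E2 kept less of its level than most enhancers that were well transcribed before stimulation. Of the 323 enhancers with at least 20 unstimulated tags, the median share left was 41.3% to 60.6% with a single stimulus and 29.5% to 46.6% with both. Counted from the lowest share left, E2 ranked 69th, 55th and 54th of 323 with IFN-γ at 3, 9 and 15 h and 15th, 13th and 44th with CpG. With both stimuli it ranked 27th at 3 h and 16th at 9 and at 15 h. Enhancers taken for their tags in unstimulated cells can have part of such a loss built in, and how large a part was not tested. Over all 2792 tested, the median log2 difference from unstimulated cells was -0.30 to 0.40 in the 9 groups with whole-library totals, the scale of RPM. With TMM factors from enhancer tags it was 0 to 0.32. The ranks use the contrast that chose the region and are a description.

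**Figure D2:**
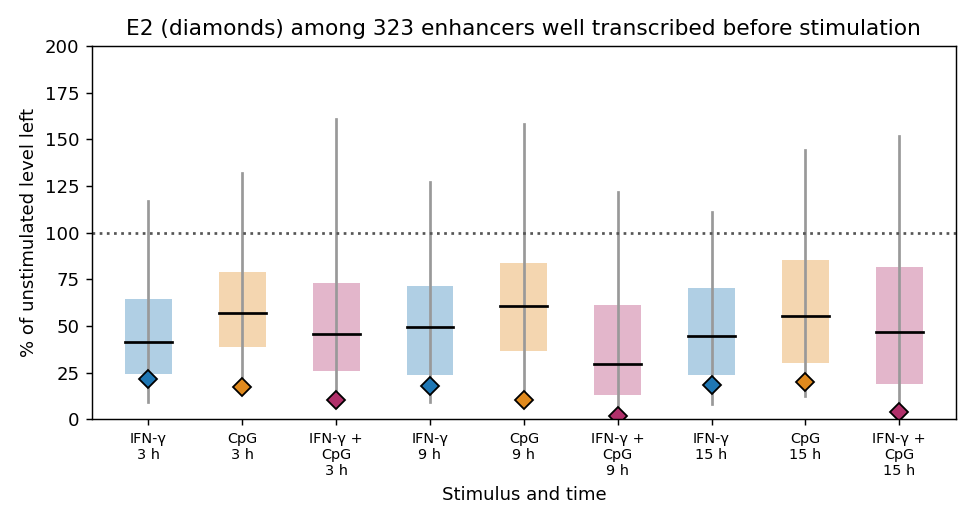
Share of the unstimulated level left (vertical axis, %) in each stimulated group, for 323 enhancers with at least 20 unstimulated tags (boxes, 25th to 75th percentile, with the median as a line and whiskers from the 5th to the 95th percentile) and for E2 (diamonds). E2 lies below the 25th percentile in all 9 groups, at 1.95% with both stimuli at 9 h against a median of 29.5%.

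Against unstimulated cells, E2 was called lower in all 9 groups (edgeR, adjusted p under 0.05) E1 in 7 and E5 in 1, with both stimuli at 3 h. E1 was not called with CpG or both stimuli at 3 h. No group was called higher for E1, E2 or E5. Of the 3 enhancers tested in the region, 2 were called lower with IFN-γ at each time, where 2.9%, 6.59% and 4.94% of all tested enhancers were called lower at 3, 9 and 15 h. With CpG 1, 2 and 2 of the 3 were called lower, against 0.358%, 2.51% and 3.04% of all. With both stimuli 2 of the 3 were called at each time, against 8.95%, 8.27% and 9.67% of all. The region was chosen on this contrast, and E1 passed the filter only through the unstimulated libraries, so these calls follow from the choice and nothing is read from them or from their share.

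Both stimuli together left less E2 than IFN-γ did alone. At every time both libraries with both stimuli lay below both libraries with IFN-γ alone, at 11 against 22 tags at 3 h, 2 against 19 at 9 h and 4 against 19 at 15 h, summed over the pair. How many of all enhancers separate in this way was not counted, so the separation is a description. The log2 difference was -1.54 ± 0.59 (SE) at 3 h (adjusted p = 0.144, edgeR quasi-likelihood test), -3.03 ± 1.12 at 9 h (adjusted p = 0.0184) and -2.65 ± 0.84 at 15 h (adjusted p = 0.00987). These values use TMM factors. In RPM, IFN-γ alone exceeded both stimuli 2.09-fold at 3 h (exact 95% interval 0.97 to 4.77), 9.06-fold at 9 h (2.19 to 80.3) and 4.71-fold at 15 h (1.57 to 19.1). The median log2 difference of all tested enhancers at 3 h was 0.11 with TMM and 0.57 with whole-library totals. Over the 3 times, 17 tags with both stimuli stood against 60 with IFN-γ, and the mean log2 difference was -2.41 ± 0.51 (95% interval -3.40 to -1.41, adjusted p = 1.23e-06, lower at 3 of 3 times). E2 was the 1 enhancer of the 3 called lower at 9 h, at 15 h and over the times, where 2.26%, 4.01% and 9.03% of all tested enhancers were called lower. At 3 h edgeR called 0 of the 3, against 0.251% of all, with E2 lower and E1 higher at an unadjusted p under 0.05 and 0 called by DESeq2 or by limma. In a fit of the compared groups alone, E2 was called at 3 h (adjusted p = 0.0287). The mean over times was called whichever single library was left out (adjusted p 6.26e-06 to 1.05e-04), while the calls at 9 h (0.124 to 0.241) and at 15 h (0.0661 to 0.193) were lost whichever of the 4 libraries was left out, and with DESeq2 (0.0964 and 0.0532) and limma on log2(RPM + 2) (0.0850 and 0.0914). The call at 9 h was also lost with no filter (0.0735).

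They also left less E2 than CpG did alone. Both libraries with both stimuli lay below both CpG libraries at each time, with 11 against 18 tags at 3 h, 2 against 11 at 9 h and 4 against 20 at 15 h. This separation too is a description, as its share over all enhancers was not counted. The log2 difference was -1.07 ± 0.61 at 3 h (adjusted p = 0.211, edgeR), -2.17 ± 1.16 at 9 h (adjusted p = 0.178) and -2.53 ± 0.84 at 15 h (adjusted p = 0.0200). In RPM, CpG alone exceeded both stimuli 1.69-fold at 3 h (exact 95% interval 0.757 to 3.96), 5.39-fold at 9 h (1.18 to 50.1) and 5.12-fold at 15 h (1.71 to 20.6). Over the times, 17 tags stood against 49, a mean log2 difference of -1.92 ± 0.52 (95% interval -2.94 to -0.91, edgeR adjusted p = 3.54e-04, lower at 3 of 3 times). The mean was no longer called without CpG 9 h replicate 2 (adjusted p = 0.102, -1.40), and the lowest adjusted p with any 1 library left out was 1.41e-04. The call at 15 h was lost without CpG 15 h replicate 1 (adjusted p = 0.643, -1.20), and also without either library with both stimuli (0.249 and 0.102), with DESeq2 (0.0979), with no filter (0.0859) and with limma on log2(RPM + 0.5) (0.0631) or log2(RPM + 2) (0.114). At 3 and 9 h edgeR called 0 of the 3 enhancers of the region lower, against 5.44% and 1.9% of all, with 0 and 1 at an unadjusted p under 0.05 and 0 by DESeq2 or limma. At 15 h the call was E2 alone (1.65% of all), and over the times E2 and E5 were called (12.1% of all).

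The single stimuli left E2 at levels that overlapped at 9 and 15 h. At 3 h both IFN-γ libraries lay above both CpG libraries in RPM (0.907 and 0.769 against 0.747 and 0.611), while the nearest 2 had 10 tags each. CpG minus IFN-γ was -0.48 ± 0.32 on the log2 scale over the times (95% interval -1.10 to 0.14, adjusted p = 0.206, edgeR), with 49 against 60 tags, so the interval allows a lower level with CpG down to -1.10. It was -0.46 ± 0.52 at 3 h, -0.86 ± 0.60 at 9 h and -0.12 ± 0.52 at 15 h, none of them called.

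From the highest to the lowest mean, the levels of E2 ran from unstimulated cells through IFN-γ 3 h, CpG 15 h, IFN-γ 15 h, IFN-γ 9 h, CpG 3 h, CpG 9 h and both stimuli at 3 h to both at 15 h and both at 9 h. Neighbours in this order overlapped between their libraries except at 2 steps, from unstimulated cells to IFN-γ 3 h and from both stimuli at 3 h to both at 15 h.

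In mean RPM, the joint effect of IFN-γ and CpG on E2 lay near the product of the single effects at 9 and 15 h, where it rests on 2 and 4 tags. If each stimulus left the same fraction of E2 in the presence of the other as alone, both would leave 0.146, 0.0722 and 0.142 RPM at 3, 9 and 15 h. The observed levels were 0.403, 0.0759 and 0.154 RPM. On the log2 scale of the fit, the departure of both stimuli from the sum of the single responses was 0.70 ± 0.73 at 3 h, 0.18 ± 1.24 at 9 h and -0.41 ± 0.94 at 15 h, where a value above 0 is less loss than the product. The 95% intervals were -0.74 to 2.13, -2.24 to 2.60 and -2.26 to 1.44, so levels well above or below the product are allowed at 9 and 15 h. The mean departure over times was 0.16 ± 0.60 (95% interval -1.01 to 1.33). The value at 3 h was 1.46 with libraries scaled to their whole totals, a scaling under which the median departure of all tested enhancers was 0.73 in place of 0.03. At 9 and 15 h that median was -0.26 and 0.43 with whole totals, the scale of RPM, in place of -0.15 and -0.05. With 1 library left out, the departure ranged from 0.45 to 1.07 at 3 h, from -0.59 to 1.58 at 9 h and from -1.28 to 1.00 at 15 h. The highest values were those without CpG 9 h replicate 2 at 9 h and without CpG 15 h replicate 1 at 15 h. The departure holds the unstimulated libraries on which the region was chosen, so its values and errors are a description and no test is read from them.

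**Figure D3:**
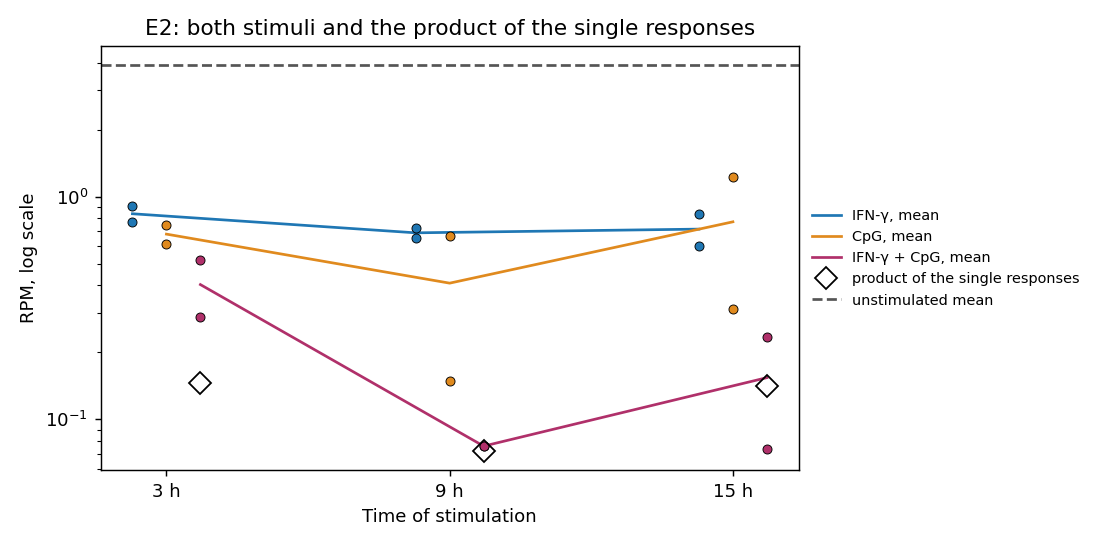
Level of E2 (vertical axis, RPM, log scale) at 3, 9 and 15 h with IFN-γ, CpG or both, as single libraries (points) and group means (lines), beside the product of the single responses (open diamonds) and the unstimulated mean (dashed). The mean with both stimuli lies above the diamond at 3 h (0.403 against 0.146 RPM) and close to it at 9 and 15 h.

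No change of E2 between 3 and 15 h was called within a stimulus. The log2 difference of 15 h from 3 h was -0.35 ± 0.51 with IFN-γ, -0.01 ± 0.53 with CpG and -1.47 ± 0.89 with both (adjusted p = 0.807, 1 and 0.254, edgeR). Of E1, E2 and E5, edgeR called 0 with IFN-γ, CpG and both, against 1.04%, 0.645% and 9.28% of all tested enhancers. At an unadjusted p under 0.05 there were 0, 1 and 1, DESeq2 called 0, and limma called 0, 1 and 1. In the interactions of stimulus and time (15 h minus 3 h) edgeR called 0 of the 3 for both against IFN-γ, both against CpG and CpG against IFN-γ, against 0.107%, 0.215% and 0.107% of all, with 1, 0 and 0 at an unadjusted p under 0.05 and 0 by DESeq2 or limma. For E2 these interactions were -1.12 ± 1.03, -1.46 ± 1.04 and 0.34 ± 0.73 on the log2 scale, so a deeper joint loss at 15 h than at 3 h was not detectable.

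E1 gave 9 and 11 tags in unstimulated cells (0.735 ± 0.119 RPM). With IFN-γ it gave 0 and 0 tags at 3 h, 1 and 2 at 9 h and 0 and 2 at 15 h. With CpG it gave 4 and 4 at 3 h, 0 and 0 at 9 h and 0 and 2 at 15 h. With both stimuli it gave 2 and 6 at 3 h, 0 and 1 at 9 h and 0 and 0 at 15 h. All 9 stimulated groups lay wholly below the same 2 unstimulated libraries, and how many of all enhancers did so was not counted. With an empty pair of libraries counted as 3 tags, E1 was 6.41-fold lower with IFN-γ at 3 h. On the same floor it was 6.57-fold lower with CpG at 9 h and 6.45-fold lower with both at 15 h. These 3 values leave out the counting error of the unstimulated tags. With CpG and with both stimuli at 3 h E1 was 2.43-fold (1.02 to 6.37) and 2.51-fold lower (1.06 to 6.59).

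At 3 h the 2 libraries with IFN-γ alone had no tag at E1, while CpG and both stimuli each left 8 tags, 2.64-fold and 2.55-fold the floor of 3 tags. Neither difference was called (adjusted p = 0.0647 for CpG against IFN-γ and 0.211 for both against IFN-γ, edgeR). With limma on log2(RPM + 0.5) the first was called (adjusted p = 0.0415). On log2(RPM + 0.1) limma called the first (adjusted p = 0.0178) and the second (0.0497), and on log2(RPM + 2) neither. CpG at 3 h and both at 3 h differed little (ratio 1.03, exact 95% interval 0.338 to 3.16). Summed over the times, E1 gave 5 tags with IFN-γ, 10 with CpG and 9 with both, and the ratio of CpG to both was 1.12 (exact 95% interval 0.411 to 3.13). Unlike at E2, the sum with both stimuli was not the lowest of the 3, and whether the enhancers differ in this was not tested.

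E5 gave 3 and 5 tags in unstimulated cells (0.295 ± 0.11 RPM). With IFN-γ it gave 0 and 0 tags at 3 h, 1 and 1 at 9 h and 0 and 0 at 15 h. With CpG it gave 2 and 0 at 3 h, 2 and 1 at 9 h and 10 and 5 at 15 h. With both stimuli it gave 0 and 0 at 3 h, 0 and 0 at 9 h and 0 and 2 at 15 h. CpG at 15 h (0.58 ± 0.267 RPM, 197% of the unstimulated level) was the 1 group of the region whose mean lay above that of unstimulated cells, and its libraries lay above the unstimulated ones in RPM (0.769 and 0.391 against 0.217 and 0.372), while the nearest 2 had 5 tags each. The other 8 stimulated groups of E5 lay wholly below the unstimulated libraries, at 0 to 2 tags a library against 3 and 5. All share the same 2 unstimulated libraries, and how many of all enhancers separate in this way was not counted, so nothing is read from it.

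Between stimuli at 15 h, E5 gave 15 tags with CpG and 0 with IFN-γ, 5.15-fold the floor of 3 tags (edgeR adjusted p = 0.0155 for CpG against IFN-γ). E5 was tested because it is high in these CpG libraries, the only ones through which it passed the filter, so the call is not read as support. It was the 1 enhancer of the 3 called higher there (7.49% of all), and 0 of the 3 were called higher at 3 and 9 h (4.08% and 9.67% of all), with 1 and 0 at an unadjusted p under 0.05, 0 by DESeq2 and 1 and 0 by limma. With no filter the adjusted p was 0.0284, DESeq2 gave none, and in a fit of the compared groups alone E5 did not pass the filter. The call was lost without IFN-γ 15 h replicate 1 (0.130), without IFN-γ 15 h replicate 2 (0.145) and without CpG 15 h replicate 1 (0.154), and held without CpG 15 h replicate 2 (0.0376).

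Over the times, E5 gave 20 tags with CpG, 2 with IFN-γ and 2 with both. CpG exceeded both stimuli 10.1-fold (exact 95% interval 2.46 to 89.3, edgeR adjusted p = 0.0221), with 15 against 2 tags at 15 h (7.67-fold, 1.78 to 69.2, adjusted p = 0.114). CpG also exceeded IFN-γ (edgeR adjusted p = 0.0254, with 20.6% of all tested enhancers called higher). Both rest mostly on the 15 tags of CpG at 15 h, through which E5 passed the filter, so neither call is read as support. With no filter the adjusted p was 0.0498 and 0.0486. DESeq2 gave none for the first and 0.311 for the second, for which E5 did not pass the filter in a fit of the compared groups alone. A fit with a term per stimulus and a term per time, added after the data were seen because a group without tags gives no finite mean of logs, gave adjusted p = 0.00734 and 0.0153. Without CpG 3 h replicate 1, where the CpG group at 3 h has no tag left, the adjusted p was 1.00 in both comparisons. The first was also lost without CpG 9 h replicate 1 (0.0752), CpG 15 h replicate 1 (0.0547), both 3 h replicate 2 (0.0590) and both 9 h replicate 1 (0.0524), and the second without IFN-γ 3 h replicate 1 (0.0615), CpG 9 h replicate 1 (0.0683) and IFN-γ 15 h replicate 2 (0.0566).

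E3 and E4 were close to the detection limit in every group and were not tested. E3 gave 1 and 4 tags in unstimulated cells and 0 to 3 in a stimulated library, with 8, 3 and 3 tags over the 6 libraries each of IFN-γ, CpG and both. E4 gave 2 and 3 tags in unstimulated cells and 0 to 2 in a stimulated library, with 5, 5 and 1 tags. The 2 of 9 stimulated groups of E3 and 7 of 9 of E4 that lay wholly below the unstimulated libraries rest on differences of 1 to 4 tags.

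**Figure D4:**
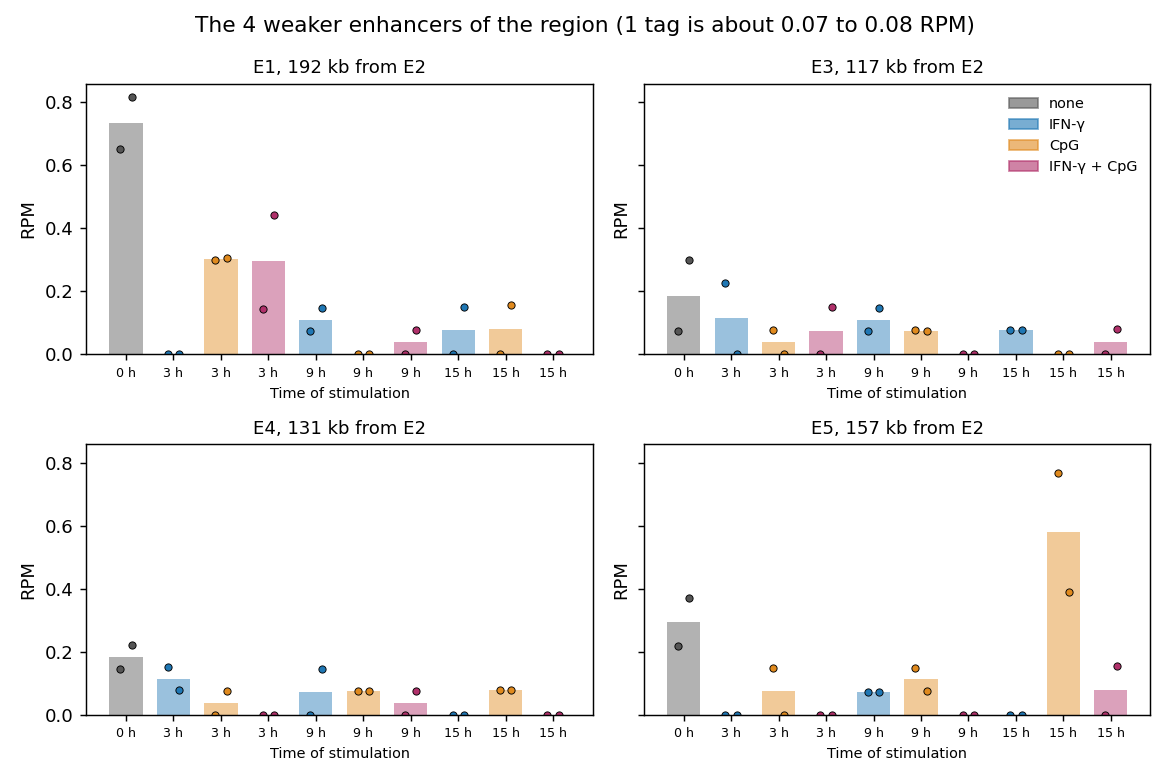
Levels of E1, E3, E4 and E5 in RPM (vertical axes, 1 shared scale) in each library (points) and as group means (bars), by time of stimulation and coloured by stimulus. E1 is highest in unstimulated cells (0.735 RPM) and E5 with CpG at 15 h (0.58 RPM), while E3 and E4 stay at a few tags.

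Summed over E1 to E5, the region gave 5.29 ± 1.04 RPM in unstimulated cells. With IFN-γ the sum was 1.07 ± 0.31, 1.05 ± 0.261 and 0.865 ± 0.0597 RPM at 3, 9 and 15 h, and with CpG 1.13 ± 0.196, 0.669 ± 0.314 and 1.51 ± 0.803 RPM. With both stimuli it was 0.771 ± 0.478, 0.152 ± 0.108 and 0.271 ± 0.279 RPM, on average 7.52% of the unstimulated sum. E2 made up most of the sum in unstimulated cells, and E1, E3, E4 and E5 together gave 1.4 ± 0.443 RPM there (38 tags), 0.736 ± 0.155 with CpG at 15 h (19 tags) and 0.0761 ± 0.108 with both at 9 h (2 tags).

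Elsewhere in the genome, the enhancers whose group means were most like E2 were sought among 149 with at least 1 RPM in unstimulated cells, by Pearson's r of log2(mean RPM + 0.1) over the 10 groups. The closest were chr8:117801052-117801741 (r = 0.937), chr13:49366905-49367289 (0.93), chr8:84928192-84928495 (0.916), chr6:99413267-99413599 (0.909) and chr2:157972713-157972903 (0.892). The median r of the 149 was 0.462, and 4 reached 0.9. The points share libraries and the single unstimulated group, and r is a description. Of these 5, chr6:99413267-99413599 went from 1.77 ± 0.555 RPM to 0.0759 RPM with both at 9 h, the same level as E2 with 1 tag in each library. The level of chr8:84928192-84928495 went from 5.21 RPM to 0.721 RPM there.

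**Figure D5:**
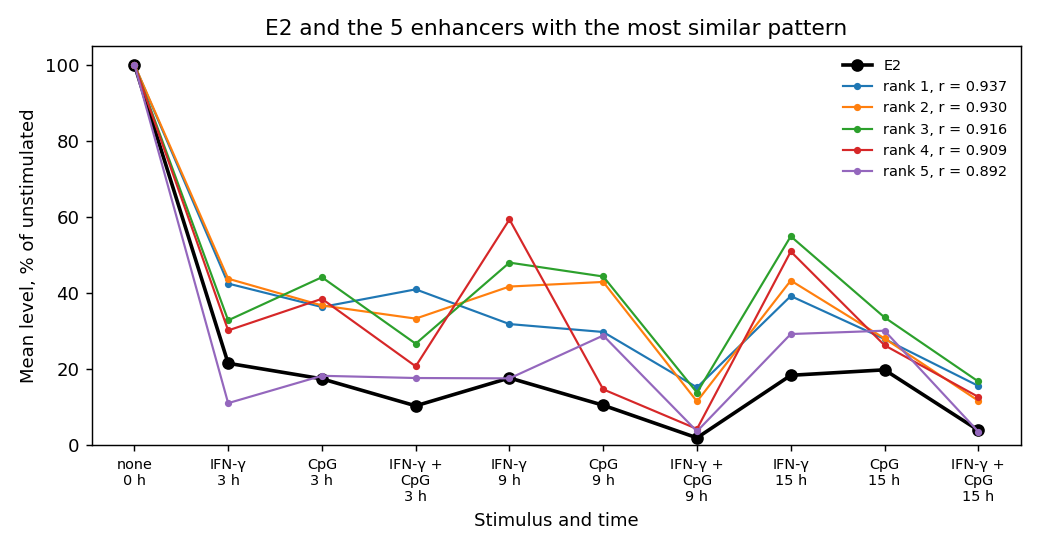
Group means as a share of the unstimulated mean (vertical axis, %) for E2 (black) and the 5 enhancers with the most similar pattern (coloured, named by rank and r), over the 10 groups. Each has its lowest or next-lowest mean with both stimuli at 9 h, where E2 stands at 1.95%.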

How the data were processed

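Capped 5′ ends were counted as tags by nAnT-iCAGE, which does not amplify the cDNA, in 20 libraries of macrophages grown from marrow (10 groups of 2), grouped by their titles and characteristics. Raw tag counts of 11222 enhancers were deposited by the authors, with a second table whose values, per the file headers and the values themselves, are RPM over all tags in a library: 100% of the deposited RPM values gave back whole counts (to within 4e-13 of a tag). Per the submitters' processing notes the build was mm39 and the tools were HISAT2 2.1.0, BWA 0.7.10, Trimmomatic 0.38 and FastQC 0.11.5. The enhancer caller was not given in the sources used here. In addition, the labels' protocols describe treatment with IL-4 and IL-10 and a stimulation of a different length; whether these and the stated doses apply to these libraries is not stated. Positions are copied as deposited, and the base from which starts are counted (0 or 1) is unknown.

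The counts were tested with edgeR 4.0.16 (robust quasi-likelihood F-test, two-sided, R 4.3.3) in 1 fit of all 20 libraries with 1 coefficient per group, TMM factors from the enhancer tags and 10 residual degrees of freedom. The filter was filterByExpr (minimum count 5, minimum total 15), which left 2792. A call is a Benjamini-Hochberg adjusted p under 0.05 over these 2792. The common biological coefficient of variation was 17.8%. The spread was shared across enhancers, so that adjusted p-values of E1, E2 and E5 rest mostly on it rather than on their own pairs of libraries. Log2 differences are unshrunk, with the standard error of the fit; none is given where a group has no tag. There, a fold counts the empty group as 3 tags in sum. It leaves out the counting error of the other group, so it is not a bound. Exact 95% intervals of ratios come from the binomial share of the tags (Clopper-Pearson) and cover counting error only. The share of all enhancers whose groups do not overlap was not counted, so separations of libraries are a description.

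The region, the enhancers and the comparisons were chosen with earlier results of these data known. By the rule for naming, every enhancer of the region that passed the filter is described, with every library for the 3 with the most tags, beside the 5 enhancers elsewhere closest to E2. The rule also foresaw neighbouring genes, motifs and cell type markers; these need an mm39 annotation or genome and are not analysed here. Alternatives were RLE factors, whole-library totals, DESeq2 1.42.0, no filter and a stricter one (minimum count 10, minimum total 30), a block for the replicate number, limma 3.58.1 on log2(RPM + 0.5), + 0.1 or + 2, fits of only the groups compared, and leaving out each library. Counts called by limma in the results use 0.5. Same-numbered libraries did not deviate together (r of deviations -0.051 to 0.038 over 45 pairs of groups), so replicate numbers were not taken as pairs. With TMM the median log2 difference over all tested enhancers lay between -0.06 and 0.11 in the comparisons of stimuli with each other, and between -0.19 and 0.57 with whole-library totals. Beside unstimulated cells, both stimuli gave 0.23 to 0.32 with TMM.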

Additional observations from a re-analysis of the deposited data

Results flagged for a closer look

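At E1 (chr1:128326811-128327315) the libraries of the single stimuli changed their order between times. CpG minus IFN-γ was 0.302 RPM at 3 h, with 4 and 4 tags against 0 and 0, and -0.109 RPM at 9 h, with 0 and 0 tags against 1 and 2. Every library of one stimulus lay above every library of the other at both times, in opposite directions. The difference between the times was not tested as such, and the values at 9 h rest on 3 tags.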

How the results depend on the processing

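The counts that follow are of calls among E1, E2 and E5. DESeq2 called 3, 3 and 3 for IFN-γ, CpG and both against unstimulated cells in place of 6, 5 and 6, 0 for both against IFN-γ (2), both against CpG (1) and CpG against IFN-γ (1), and, averaged over times, 1 for both against CpG (2) and 0 for CpG against IFN-γ (1); it gave no adjusted p in 38 of 81 comparisons, none of them of E2. The stricter filter, which left out E1 and E5, gave 3, 3 and 3 against unstimulated cells, 0 for CpG against IFN-γ and, averaged, 1 for both against CpG and 0 for CpG against IFN-γ. No filter gave 1 for both against IFN-γ and 0 for both against CpG. The compared groups alone gave 0 for CpG against IFN-γ at single times and averaged. limma with 0.5 gave 2 for CpG against IFN-γ and 2 for 15 h against 3 h (0), with 0.1 it gave 2, 2 and, for both against CpG, 2, and with 2 it gave 0 for both against IFN-γ and 1 for 15 h against 3 h. With 0.5 and with 2, the 1 call for both against CpG was of E5 and not of E2. With 1 library left out, IFN-γ against unstimulated cells had 2 to 5 calls, CpG 3 to 5 and both stimuli 4 to 6. There were 1 to 2 calls for both against IFN-γ, 0 to 1 for both against CpG and for CpG against IFN-γ, and, averaged, 1 for both against IFN-γ, 1 to 2 for both against CpG and 0 to 1 for CpG against IFN-γ; there were 0 throughout for 15 h against 3 h and for stimulus by time. The mean departure of E2 from additivity ranged from -0.09 to 0.70 with a library left out and was 0.54 with whole-library totals, and the summed region with both stimuli from 4.83% to 8.74%. With the replicate number as a block, CpG against unstimulated cells gave 4 in place of 5, the departure was 0.15, and no other count changed. Apart from the stricter filter and the smaller sets of libraries, the cause of these differences was not tested. No value called changed its sign. Of 1151 values of single enhancers under the alternatives, 1057 were counted as unchanged. A called value had to stay called with its sign, and a value not called had to stay so, whatever its sign. A departure of E2 from additivity had to move by less than its SE. Depth limits E3 and E4 most, at 19 and 16 tags over the 20 libraries.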
